A study of Homo sapiens with 6 samples.

Results

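The extrinsic pathway of apoptosis was followed in MOLT-3 cells through 9 genes, which were taken by name from the 58735 genes of the deposited tables. They are the death receptor genes FAS, TNFRSF10A and TNFRSF10B, the genes of the adaptor FADD, of caspase 8 (CASP8) and of its inhibitor CFLAR, and the inhibitor of apoptosis (IAP) genes BIRC2, BIRC3 and XIAP. MOLT-3 is an established human line of T-cell acute lymphoblastic leukaemia. RNA was sequenced from 3 libraries of compound E cells and 3 libraries of cells given the solvent, DMSO. Compound E inhibits gamma-secretase and so stops the release of the active part of NOTCH receptors. All groups are the same cell line, so any change stands for 1 line. How much compound E was used and for how long was not stated in the labels, nor whether each replicate was a culture of its own. The p-values therefore cover the spread between these libraries, which may be technical. The submitters set out to find genes under NOTCH1 that bear on the sensitivity of these leukaemia cells to chemotherapy.

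Death receptors sit in the plasma membrane and carry a death domain on the inner side. When their ligands cluster them, FADD binds the death domain and recruits procaspase 8, which is activated by proximity and cleaves the executioner caspases or the BH3-only protein BID. CFLAR encodes c-FLIP, a relative of caspase 8 without catalytic activity that takes its place in the complex. XIAP binds and blocks caspases directly, whereas BIRC2 and BIRC3 encode the ubiquitin ligases cIAP1 and cIAP2, which act mainly on RIPK1 and on the kinase NIK. In thymocytes and T cells the pathway is known above all from FAS, which removes activated and autoreactive cells.

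Total counts per library were 18154037 to 18973990 with compound E and 17316138 to 19845114 with DMSO, of which the 9 genes took 6186 to 7261. The label of a T-cell leukaemia was checked with 14 markers fixed for it, all of which were above 1 CPM on average, at a summed level of 6108 to 6203 CPM with compound E and 5069 to 5097 CPM with DMSO. Markers of B cells (14.0 to 15.4 and 14.4 to 15.9 CPM in all, nearly all of it CD79A, with MS4A1 and PAX5 at 0 counts), of myeloid cells (at most 3.06 CPM, with MPO at 0), of erythroid cells (at most 0.231 CPM, with HBB at 0) and of epithelial cells and fibroblasts (11.2 to 12.8 CPM with compound E and 15.1 to 15.9 CPM with DMSO, mostly COL1A1, with COL1A2 at 0) were scarce. Mitochondrial genes took 4.60% to 5.22% of counts with compound E and 5.18% to 5.34% with DMSO, and the ranges overlapped. The part of the mitochondrial share in any result was not tested.

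Compound E changed 4 of the 9 genes in edgeR's quasi-likelihood test over 16926 genes, with calls at 0.05 after Benjamini-Hochberg adjustment, and all 9 had enough counts to be tested. TNFRSF10B was lower in compound E cells, while BIRC2, CASP8 and XIAP were higher. Of all tested genes 38.3% were called, so a count of 4 in 9 is near the background of this comparison and is no result about these genes as a set. In single directions 18.9% of all tested genes were called higher and 19.4% lower. The groups did not overlap in 6 of the 9 genes, against 46.8% of all tested genes. The median log2 fold change of the 9 genes was 0.10, beside -0.0034 for all tested genes. Levels below are CPM, read counts divided by the TMM-scaled library size, or FPKM, which is also divided by gene length, and each fold change is compound E over DMSO unless said otherwise. In bulk RNA, fewer cells with a transcript and less transcript per cell cannot be told apart.

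**Figure D1:**
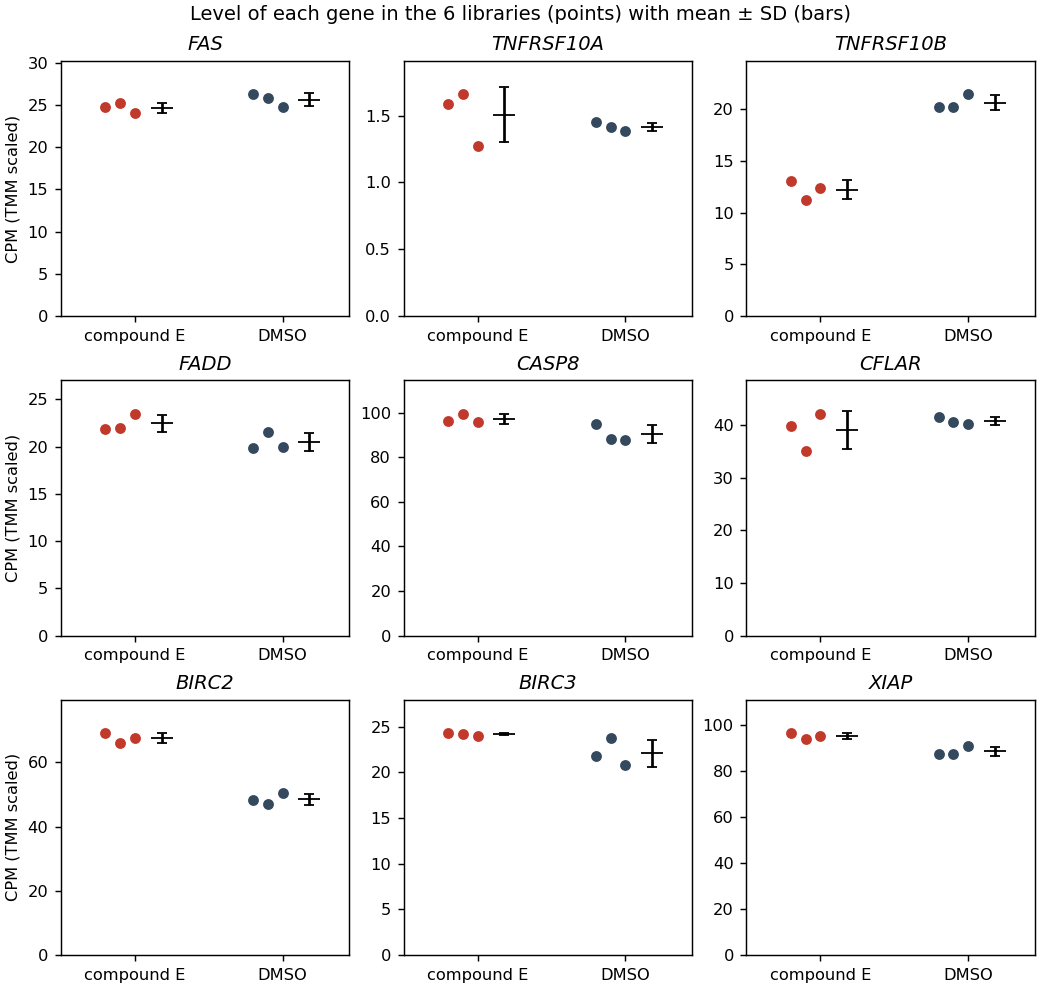
Level of each of the 9 genes in CPM (vertical axes, from 0) in the 3 compound E and the 3 DMSO libraries, with the mean and SD beside the points. TNFRSF10B lies between 11.2 and 13.0 CPM in compound E cells and between 20.2 and 21.4 CPM in DMSO cells, and BIRC2 shows the widest gap in the other direction.

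Of FAS, TNFRSF10A and TNFRSF10B, only TNFRSF10B passed the test. It encodes TRAIL-R2, also called DR5, 1 of the receptors by which the ligand TRAIL kills. Its level was 13.0, 11.2 and 12.4 CPM in the compound E libraries, against 20.3, 20.2 and 21.4 CPM in the DMSO libraries. Every compound E library lay well below every DMSO library, and the means were 12.2 ± 0.908 and 20.6 ± 0.705 CPM (SD, n = 3 each). The log2 fold change was -0.75 ± 0.0793 (SE; edgeR adjusted p = 3.24e-10), so DMSO cells had 1.69-fold more, with a 95% interval of 1.51 to 1.89. The direction and the call held in all 17 alternative settings, with log2 fold changes of -0.80 to -0.57. TNFRSF10B lies on chromosome 8, minus strand, from 23020133 to 23069179 (ENSG00000120889, GRCh38), and RHOBTB2, which overlaps it on the opposite strand, did not pass, at a log2 fold change of -0.11 (edgeR adjusted p = 0.19).

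TNFRSF10A encodes TRAIL-R1, or DR4, the other TRAIL receptor with a death domain, and was barely expressed. It had 29, 30 and 24 counts in the compound E libraries, against 28, 28 and 24 counts in the DMSO libraries. The groups overlapped, and at this depth the 95% interval of its fold ran from 0.748 to 1.51 (edgeR adjusted p = 0.824), so smaller changes were not detectable at this depth. The per-library ratio of TNFRSF10B to TNFRSF10A, in FPKM, was 4.70, 3.87 and 5.55 in compound E cells, against 7.99, 8.17 and 8.84 in DMSO cells. TNFRSF10A spans 23190452 to 23225126 on chromosome 8, on the same strand as TNFRSF10B (ENSG00000104689).

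FAS, the receptor of FAS ligand, was not called. It had 24.7, 25.2 and 24.1 CPM in compound E libraries, against 26.3, 25.9 and 24.7 CPM in DMSO libraries, and the ranges overlapped. Its log2 fold change was -0.06 ± 0.0623 (SE; edgeR adjusted p = 0.516), and the 95% interval of the fold was 0.881 to 1.05. With TNFRSF10B lower, the summed FPKM of the 3 receptors was 8.83, 8.64 and 8.46 in compound E cells, against 10.5, 10.4 and 10.3 in DMSO cells. TNFRSF10B made up 27.3% ± 1.87 of that sum with compound E and 38.1% ± 1.51 with DMSO (SD, n = 3 each), and FAS was the most abundant of the 3 in every library. FAS lies on chromosome 10, plus strand, from 88990582 to 89015785 (ENSG00000026103), where ACTA2 overlaps it on the other strand with at most 58 counts in a library.

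**Figure D2:**
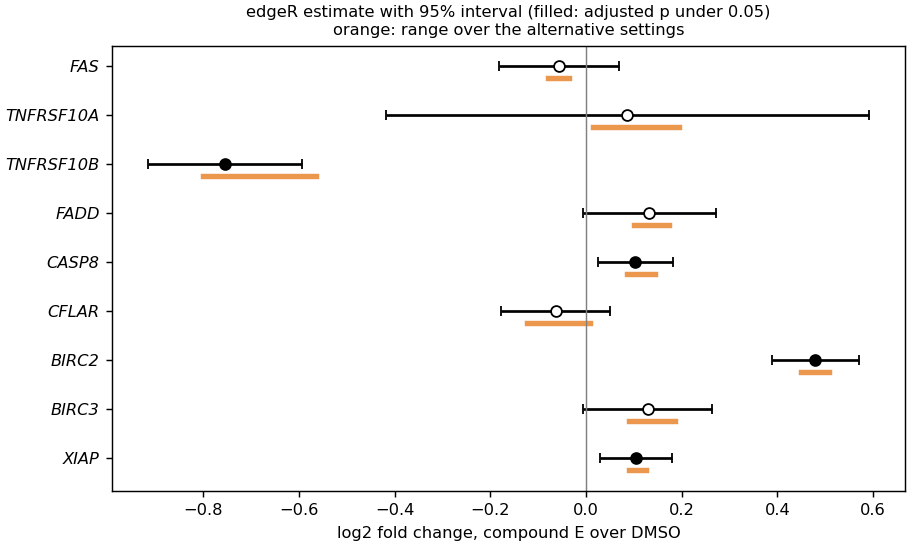
Log2 fold change of compound E over DMSO for each gene (horizontal axis), as the edgeR estimate with its 95% interval, filled where the adjusted p was under 0.05, and in orange the range of estimates over the alternative settings. TNFRSF10B and BIRC2 lie clear of 0 at -0.75 and 0.48, CASP8 and XIAP just above it, and the orange bar of CFLAR crosses 0.

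Of FADD, CASP8 and CFLAR, CASP8 was the only one called, with a small rise. CASP8 had 96.2, 99.6 and 95.8 CPM in compound E libraries, against 95.1, 88.4 and 87.9 CPM in DMSO libraries. The lowest compound E library was above the highest DMSO library by less than 1 CPM. The log2 fold change was 0.10 ± 0.0384 (SE; edgeR adjusted p = 0.0303), a fold of 1.07 with a 95% interval of 1.02 to 1.13. The call was lost in 8 of 17 alternative settings, among them DESeq2 (adjusted p = 0.0928) and the fits without compound E replicate 2 (edgeR adjusted p = 0.104), DMSO replicate 2 (0.138) or DMSO replicate 3 (0.137). CASP8 lies on chromosome 2, plus strand, from 201233443 to 201287711 (ENSG00000064012), next to its relatives CFLAR and CASP10.

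FADD had 11.8, 11.9 and 12.7 FPKM with compound E, against 10.7, 11.6 and 10.8 FPKM with DMSO. The groups did not overlap, yet the log2 fold change of 0.13 ± 0.0685 (SE) did not pass (edgeR adjusted p = 0.128), and its interval for the fold was 0.996 to 1.21. The gene lies on chromosome 11, plus strand, from 70203163 to 70207390 (ENSG00000168040). Of its 50-base words, 51.1% lie also on the annotated antisense transcript AP000879.1, which had 0 counts in every library. Whether the counting used the strand was not stated in the labels, so the level of FADD is uncertain. Words shared with other genes came to 14.1% for CFLAR, 12.4% for TNFRSF10A and 7.09% for FAS. For each the largest share was with a gene on the opposite strand, so their levels and ratios carry the same limit.

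CFLAR, the inhibitor of caspase 8 activation, was not called. Its values were 39.7, 35.1 and 42.1 CPM in compound E libraries, against 41.6, 40.5 and 40.1 CPM in DMSO libraries. Compound E replicate 2 was the lowest and compound E replicate 3 the highest of all 6, so the treated group enclosed the DMSO group. The log2 fold change was -0.06 ± 0.0565 (SE; edgeR adjusted p = 0.407), and it turned to 0.0084 without compound E replicate 2. Counts are sums over all exons, so the long and short forms of c-FLIP, which differ in how they act on caspase 8, are not separated. The ratio of CFLAR to CASP8, in FPKM, was 0.133, 0.113 and 0.141 with compound E, against 0.141, 0.147 and 0.147 with DMSO, and the groups overlapped. CFLAR lies on chromosome 2, plus strand, from 201116104 to 201176687 (ENSG00000003402).

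**Figure D3:**
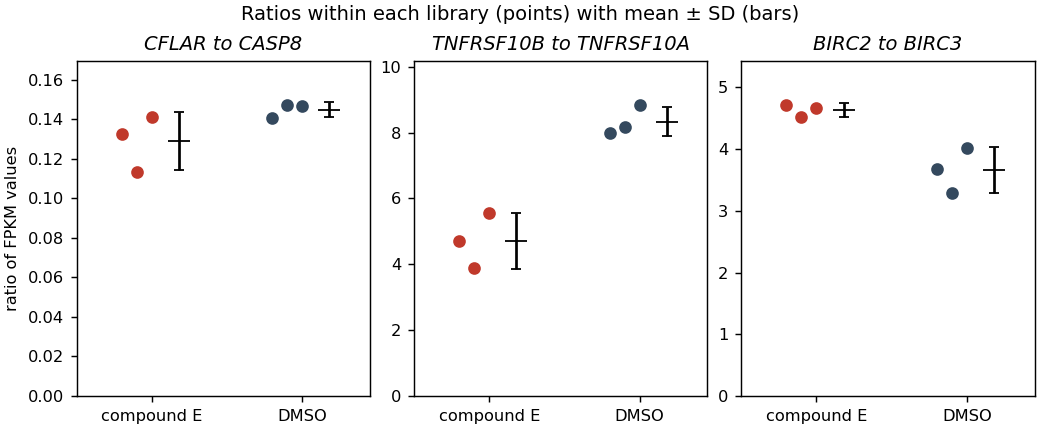
Ratio of FPKM values within each library (vertical axes, from 0) for 3 pairs of genes, in compound E and DMSO cells, with the mean and SD beside the points. The ratio of TNFRSF10B to TNFRSF10A is lower and that of BIRC2 to BIRC3 higher in every compound E library than in any DMSO library, while CFLAR to CASP8 overlaps.

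Of BIRC2, BIRC3 and XIAP, BIRC2 had the largest change, and it was upward. BIRC2 had 69.1, 65.9 and 67.6 CPM in compound E libraries, against 48.2, 47.0 and 50.3 CPM in DMSO libraries. The groups were far apart relative to their spread, with means of 67.6 ± 1.58 and 48.5 ± 1.70 CPM (SD, n = 3 each). The log2 fold change was 0.48 ± 0.0450 (SE; edgeR adjusted p = 1.71e-11), a fold of 1.39 with a 95% interval of 1.31 to 1.49. All 17 alternative settings called it higher, at log2 fold changes of 0.45 to 0.51.

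BIRC3, the close relative of BIRC2, had 24.3, 24.2 and 24.0 CPM in compound E libraries, against 21.8, 23.7 and 20.7 CPM in DMSO libraries. The highest DMSO library fell just short of the lowest compound E library, and the log2 fold change of 0.13 ± 0.0666 (SE) did not pass (edgeR adjusted p = 0.129). The fold lay between 0.996 and 1.20 at 95%, below the interval of BIRC2. The ratio of BIRC2 to BIRC3, in FPKM, was 4.72, 4.51 and 4.67 with compound E, against 3.67, 3.29 and 4.02 with DMSO. The ratios did not overlap between the groups. They were left as values with no test, and the smallest p that an exact permutation test allows with 3 libraries against 3 is 0.10.

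BIRC2 and BIRC3 stand side by side on the plus strand of chromosome 11, BIRC3 (ENSG00000023445) at 102317450 to 102339403 and BIRC2 (ENSG00000110330) at 102347211 to 102378670, with 7807 bases between them. They share just 11 words of 50 bases in their transcripts, 0.224% of the words of BIRC2. The stretches just upstream of both genes are shown because BIRC2 was called and its neighbour BIRC3 was not, and come from RefSeq on GRCh38.p14, plus strand, 5′ to 3′, up to the annotated start. They are chr11:102346964-102347210 for BIRC2 and chr11:102317234-102317449 for BIRC3, in lower case, with matches to the NF-kB consensus, the binding motif of the NF-kB family, in capitals.
BIRC2: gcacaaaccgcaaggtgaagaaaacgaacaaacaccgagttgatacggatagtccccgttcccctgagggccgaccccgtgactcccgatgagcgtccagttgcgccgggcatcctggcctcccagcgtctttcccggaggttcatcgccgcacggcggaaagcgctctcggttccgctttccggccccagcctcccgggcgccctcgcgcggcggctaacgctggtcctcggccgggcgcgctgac
BIRC3: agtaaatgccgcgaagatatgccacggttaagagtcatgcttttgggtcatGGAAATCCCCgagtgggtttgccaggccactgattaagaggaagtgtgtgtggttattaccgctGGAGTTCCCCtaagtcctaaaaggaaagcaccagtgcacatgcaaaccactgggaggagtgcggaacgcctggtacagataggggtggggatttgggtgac
BIRC3 holds 2 matches to the consensus, both on the minus strand, whose leftmost bases lie 199 and 135 bases before the RefSeq start. BIRC2 holds no match to it in either of its annotated windows, to TGGGAA, the core motif of the NOTCH partner RBPJ, or to TGANTCA, the AP-1 element. No match says only that these letters are not in the window.

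Across 7 genes with windows in RefSeq, 3 of 17 promoter windows (250 bases before to 50 after a start, both strands searched) held the NF-kB consensus, compared with 11.3% of all 35116 windows. TGGGAA was found in 5 of 17 windows, of FAS, CASP8 and XIAP, and in 24.0% of all windows. TGANTCA was found in 5 of 17, of FAS, FADD, CASP8 and CFLAR, and in 7.7% of all windows. Windows of 1 gene can overlap, so the 17 are not independent.

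XIAP, the direct caspase inhibitor, rose slightly. Its level was 96.4, 93.8 and 95.0 CPM in compound E libraries, against 87.1, 87.3 and 90.8 CPM in DMSO libraries, without overlap. The log2 fold change was 0.10 ± 0.0370 (SE; edgeR adjusted p = 0.0228), a fold of 1.08 with a 95% interval of 1.02 to 1.13. It lost the call in 6 of 17 settings, among them DESeq2 (adjusted p = 0.0733) and the fits without compound E replicate 1 (edgeR adjusted p = 0.0815), DMSO replicate 1 (0.0812) or DMSO replicate 2 (0.0848). The gene lies on chromosome X, plus strand, from 123859724 to 123913979 (ENSG00000101966). Together the IAP transcripts came to 29.0, 28.1 and 28.5 FPKM in compound E cells, against 23.0, 23.0 and 23.7 FPKM in DMSO cells, and BIRC2 made up 52.0% ± 0.320 of them with compound E and 45.7% ± 0.882 with DMSO (SD, n = 3 each).

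In level per length the genes covered a wide range. By mean FPKM in compound E cells the order was BIRC2 (14.8 ± 0.334), CASP8 (13.4 ± 0.296), FADD (12.1 ± 0.485), XIAP (10.5 ± 0.136), FAS (5.78 ± 0.137), BIRC3 (3.20 ± 0.0177), TNFRSF10B (2.36 ± 0.173), CFLAR (1.72 ± 0.158) and TNFRSF10A (0.508 ± 0.0688; SD, n = 3). In DMSO cells CASP8 led at 12.4 ± 0.568 FPKM, followed by FADD (11.0 ± 0.489) and BIRC2 (10.6 ± 0.370), and TNFRSF10B (3.96 ± 0.133) stood above BIRC3 (2.91 ± 0.198). Of all neighbours in these orders, only FADD and BIRC2 in DMSO cells had overlapping ranges. BIRC2 stood at rank 1 with compound E and at rank 3 with DMSO, while TNFRSF10B stood at rank 7 with compound E and at rank 6 with DMSO. These levels depend on the gene length by which the authors divided. For CFLAR it was 22529 bases and for CASP8 7243 bases, the union of all annotated exons, whereas the principal transcripts in GENCODE have 14672 and 1629 bases. With the length of the principal transcript as divisor, CASP8 stood at rank 1 and BIRC2 at rank 2 in both groups. The ratio of CFLAR to CASP8 was then 0.0446 with compound E and 0.0501 with DMSO. Only the divisor was changed, and the counts still covered all annotated exons. These values are therefore not levels of the principal transcripts, and they raise CASP8 most.

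**Figure D4:**
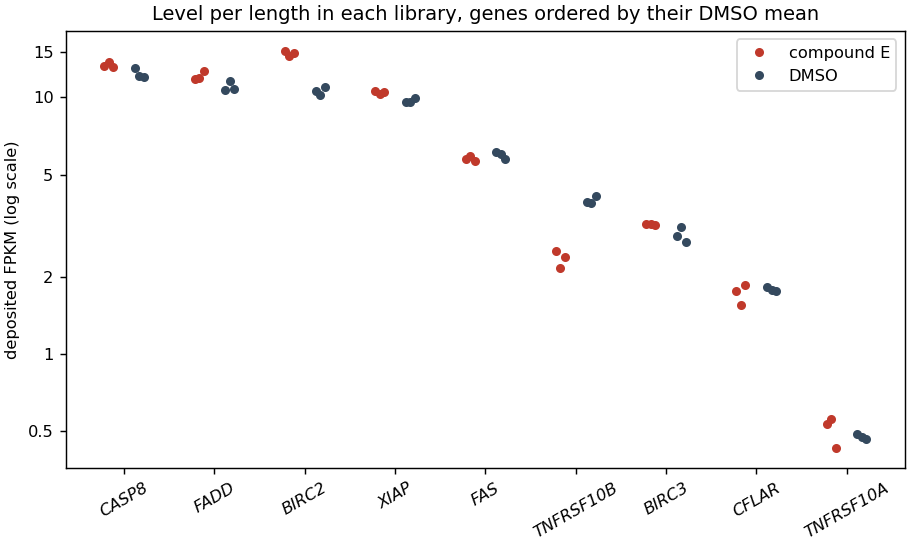
Deposited FPKM of each gene (vertical axis, log scale) in the compound E and DMSO libraries, with genes in the order of their DMSO means. The genes run from above 10 FPKM for CASP8 to about 0.5 FPKM for TNFRSF10A, and BIRC2 in compound E cells lies above all other genes.

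The ligands of FAS and of the TRAIL receptors were scarce in these cells. FASLG had 0 counts in all 6 libraries, which at 3 counts over all libraries allows up to 0.0268 CPM (counting error only), and TNFSF10, the gene of TRAIL, had between 3 and 13 counts a library and was not tested. Of 8 listed ligand genes of the TNF family, not all of them ligands of death receptors, 2 were tested. LTB, of membrane lymphotoxin, was higher at 77.5 ± 7.61 CPM with compound E, against 63.1 ± 2.28 CPM with DMSO (log2 fold change 0.30; edgeR adjusted p = 5.70e-06). TNFSF15 was called lower at 4 to 20 counts (log2 fold change -0.99; edgeR adjusted p = 0.0457), and lost the call with DESeq2 (adjusted p = 0.215).

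Of 11 further death receptor and decoy genes 5 were tested, of which 1 was called higher, 1 lower and 3 not called. Over all tested genes 18.9% were called higher and 19.4% lower, so these counts are near the background. The called genes were TNFRSF21, which encodes DR6, higher (58.6 ± 1.63 CPM with compound E, 43.8 ± 1.85 CPM with DMSO; log2 fold change 0.42) and TNFRSF1A, the main TNF receptor, lower (62.2 ± 1.05 and 73.7 ± 3.46 CPM; -0.24), both by edgeR with adjusted p of at most 1.45e-05. The TRAIL decoy receptor genes TNFRSF10C and TNFRSF10D had at most 4 counts in any library.

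Of 14 adaptors and kinases of the receptor complexes 5 were higher and 3 lower, with a median log2 fold change of 0.12. The shares over all tested genes were 18.9% higher and 19.4% lower. RIPK1, the kinase that cIAP1 and cIAP2 mark with ubiquitin, had 41.3 ± 1.47 CPM with compound E and 29.7 ± 1.60 CPM with DMSO, a log2 fold change of 0.48 ± 0.0559 (SE; edgeR adjusted p = 4.58e-09). CASP10, the relative of CASP8 beside it on chromosome 2, rose by 0.20 (adjusted p = 0.00219) and TRAF3, which links the cIAPs to NIK, by 0.14 (adjusted p = 0.000715) on the log2 scale in edgeR. TRAF1 rose by 2.72 from few counts, 3 to 35 a library.

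In the list of other caspases and mitochondrial activators, 4 of 11 genes were higher and 3 lower, with a median of 0.08. Over all tested genes 18.9% were called higher and 19.4% lower. CASP2 (0.20) and APAF1 (0.22), the scaffold of the apoptosome, rose, and DFFB, the nuclease that caspases set free to cut DNA, fell by 0.50 on the log2 scale.

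Of 4 other IAP family genes tested 3 were called higher, with a median of 0.34, beside 18.9% called higher of all tested genes. BIRC5, or survivin, which serves mainly in mitosis, had 261 ± 9.60 CPM with compound E and 179 ± 2.51 CPM with DMSO (log2 fold change 0.54), and BIRC6 rose by 0.13. NAIP was called at 0.80, but its libraries overlapped, its call was lost without compound E replicate 1 (log2 fold change 0.44; edgeR adjusted p = 0.192) and with DESeq2 (adjusted p = 0.284), and it has near copies in the genome. Of 7 genes listed as IAP antagonists AREL1 (0.27) and USP11 (0.17) were called higher, neither of which is a mitochondrial antagonist. AREL1 is a ubiquitin ligase. USP11 is a deubiquitinase and not an established IAP antagonist, so its rise is not counted as one of an antagonist. The mitochondrial antagonists DIABLO (0.33) and HTRA2 (0.03) did not pass, and DIABLO has 2 overlapping entries in the table.

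Ubiquitin ligases and deubiquitinases of the complexes gave 3 higher and 2 lower of 11, with a median of 0.0092. Over all tested genes the shares were 18.9% higher and 19.4% lower. RBCK1, a subunit of the linear ubiquitin ligase, had 156 ± 5.68 CPM with compound E and 226 ± 1.76 CPM with DMSO (log2 fold change -0.54; edgeR adjusted p = 1.55e-17). TNFAIP3, or A20 (0.35), and CUL3, which modifies caspase 8 (0.29), rose, and CYLD, which removes ubiquitin chains from RIPK1, fell by 0.19. The 15 kinases and NF-kB regulators downstream of the cIAPs had a median of 0.10. Beside 18.9% called higher of all tested genes, 8 of them did not pass and 7 were higher. The 7 included MAP3K14 (0.28), the gene of NIK, whose protein cIAP1 and cIAP2 keep low, CHUK (0.25), NFKBIA (0.25) and TAB2 (0.11).

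The last list was drawn up for regulators of death receptor genes, with DDIT3 and its partners for TNFRSF10B, and of its 12 genes 10 were lower and 1 higher, with a median of -0.59. ATF4, the factor of the integrated stress response, had 357 ± 5.27 CPM with compound E and 743 ± 4.39 CPM with DMSO (log2 fold change -1.06; edgeR adjusted p = 4.75e-30). DDIT3, which encodes CHOP and was named after its values were seen, had 5.18 ± 0.0872 and 13.9 ± 0.161 CPM (-1.42; edgeR adjusted p = 1.96e-14). TRIB3 (-1.93), a pseudokinase, and CHAC1 (-3.17), an enzyme of glutathione breakdown, are known targets of ATF4 and CHOP rather than regulators of the receptors, and MYC (-0.84) fell as well. Earlier results of these data had shown the amino acid response low before this list was written, so it is not independent evidence. Whether these genes play a part in the level of TNFRSF10B was not tested. Over all 9 lists 27 of 81 tested genes were higher and 20 lower, beside 18.9% higher and 19.4% lower of all tested genes.

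**Figure D5:**
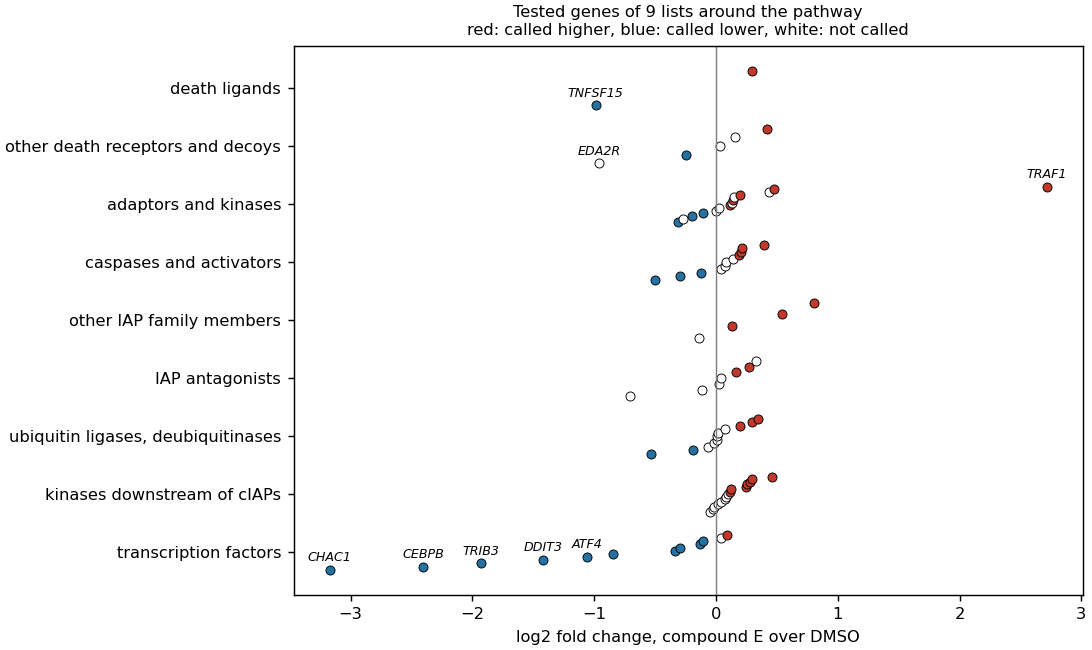
Log2 fold change of compound E over DMSO (horizontal axis) for the 81 tested genes of 9 lists around the pathway, in red where called higher, blue where called lower and white where not called. Most genes lie within 0.5 of 0, and the genes of the lowest list reach -3.17 at CHAC1.

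The called member with the smallest edgeR p was BIRC2 among those higher and TNFRSF10B among those lower. For each, the genes with the highest Pearson correlation of log2 CPM over the 6 libraries were taken from all tested protein-coding genes. This measure takes no account of the level of a gene or of the size of its change. Across the 6 libraries TNFRSF10B ran closest to ZNF865, TDRD9 and APOLD1, with Pearson's r of 0.999, 0.998 and 0.998 on log2 CPM, and BIRC2 to TRIM8 and SKIV2L, at 0.999 and 0.998. These values describe 6 libraries that fall into 2 treatment groups.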

How the data were processed

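The authors deposited a table of read counts per gene, not normalised, and a table of FPKM values for 6 libraries. The submitters' processing notes name HISAT2 2.0.5, featureCounts 1.5.0-p3 and DESeq2 1.16.1, with no role given; nothing was stated of the build, the annotation, the strand or reads with several matches. All 58735 gene entries had the coordinates and names of GENCODE release 29, so positions are on GRCh38. In the deposited FPKM, count divided by FPKM and gene length gave 1 divisor per library.

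Genes were kept by filterByExpr (16926), scaled by TMM and tested for compound E against DMSO by the quasi-likelihood F-test of edgeR 4.0.16 in R 4.3.3, with Benjamini-Hochberg adjustment over all tested genes and calls at 0.05. The SE is the size of the log2 fold change over the square root of F. Log2 values were computed here and none were deposited. The fit was tested on simulated data, with an outcome that is not reported here. Alternatives were other scalings and filters, DESeq2 1.42.0, limma 3.58.1 with voom or on log2(FPKM + 1) and log2(FPKM + 0.1), the replicate block and each library left out. Lengths of principal transcripts were an addition made after seeing the data.

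The members and lists were chosen with earlier results of these data known. All 9 members are named, and of each list up to 4 called genes with the smallest p; DDIT3 and genes given as not called were named after their values were seen. Some genes that the rules would name are not reported here. Same-numbered libraries of the groups did not deviate together (correlations -0.0191 to 0.0103), so the block is only an alternative. Replicates of a group differed by more than counting noise (chi-square per degree of freedom 1.62 to 2.59). That excess was small, at a common dispersion of 0.00074 in edgeR, a coefficient of variation of 2.72%. With so little spread between libraries, small changes could be called.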

Additional observations from a re-analysis of the deposited data

How the results depend on the processing

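BIRC2 and TNFRSF10B kept their direction and call in all 17 alternative settings, and FAS, TNFRSF10A, FADD and BIRC3 were not called in any setting that tested them; TNFRSF10A was not tested with the filter of 5 CPM in 3 libraries. CASP8 lost its call at log2 fold changes of 0.0878 with upper quartile scaling, 0.111 with DESeq2 and with limma on log2(FPKM + 0.1), and 0.104 with limma on log2(FPKM + 1) with and without the filter; with libraries left out it ranged from 0.0855 to 0.144. XIAP lost it at 0.0892 with upper quartile scaling, 0.112 with DESeq2 and 0.101 with limma on unfiltered log2(FPKM + 1), and ranged from 0.0959 to 0.125 with libraries left out. CFLAR, never called, ranged from -0.12 to 0.0084 with libraries left out, and reversed without compound E replicate 2. Accordingly 1 member in place of 3 was called higher with upper quartile scaling, DESeq2 and limma on unfiltered FPKM, and 1 to 3 with libraries left out (1 without DMSO replicate 2). Limma on unfiltered FPKM called 4002 genes in place of 6484, and 16 list genes higher in place of 27. With the replicate block 6138 genes, 3 members higher and 1 lower were called, and of the genes named TNFSF15 lost its call (adjusted p = 0.0567, edgeR). With principal transcript lengths as divisors the ratio of CFLAR to CASP8 was 0.0446 with compound E and 0.0501 with DMSO, that of BIRC2 to BIRC3 3.57 and 2.82, and that of TNFRSF10B to TNFRSF10A 9.54 with DMSO. The counts in these ratios still covered all annotated exons. TPM computed from counts kept every rank and ratio, by construction. Of 490 values for the 29 list genes that the naming rule takes under the alternatives, 468 kept their call, 22 lost it and 0 reversed. The causes of these changes were not tested. Depth limits TNFRSF10A most, at 24 to 30 counts a library.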
